A study of Mus musculus with 8 samples.

Results

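Integrins and the adaptor proteins that tie them to actin were followed in mouse bone marrow stromal cells that had flown in space or stayed on the ground. All genes whose symbol marks an integrin alpha or beta subunit were taken, together with 15 named focal adhesion adaptors, each read from the brightest probe set annotated to that gene alone. This gave 42 genes, 27 integrins and 15 adaptors, of 19938 genes on the array. A gene was tested if its mean lay above a log2 intensity of 7.14, an intensity of 141, and 35 of the 42 genes did (20 integrins and all 15 adaptors) of 13205 tested genes in all. The integrins Itga2, Itga4, Itga9, Itgae, Itgam, Itgax and Itgb6 lay below it. Ptk2, which encodes focal adhesion kinase, was not analysed here. Itgad and Itgb2l were counted as integrins, and Itgbl1 was not. Values per array are intensities, differences are on the log2 scale with their standard error (SE), and a gene is called where its adjusted p in limma is below 0.05.

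The cells came from the marrow of C57BL/6 mice aged 6 to 8 weeks, were expanded as adherent cells and then seeded on Skelite, a scaffold of calcium phosphate. In flight, constructs in automated incubation units were kept in microgravity or on a 1g centrifuge inside the same type of incubator. On the ground, they were kept in incubation units operated by hand (called ground units here) or in multi-well dishes in the laboratory. Each of these 4 conditions was measured in osteoinductive medium, which directs stromal cells towards bone formation, and in growth medium, with 1 array for each, 8 in all. Microgravity and centrifuge arrays are called flight arrays, and ground unit and laboratory arrays ground-based arrays. The gravity label of the centrifuge samples reads microgravity and 1 description of the osteoinductive centrifuge sample names growth medium, while titles say otherwise, and the titles were followed. Flight hardware was automated and ground units were not, and this and other steps of a flight cannot be told apart from gravity where flight or microgravity arrays are set against ground-based arrays. Microgravity and centrifuge arrays both flew in automated hardware, so their comparison does not hold that difference. The labels do not state whether the arrays stem from different cultures or mice, so the p-values given cover the scatter among the 8 arrays alone, and that scatter may be technical.

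Integrins are pairs of an alpha and a beta chain that span the cell membrane and hold the cell to fibronectin, collagen, laminin and other matrix proteins. Inside the cell, talin and kindlin bind the beta chain, the complex of Ilk, PINCH and parvin joins them, and vinculin, alpha-actinin, filamin and zyxin connect the site to actin filaments. In stromal cells and osteoblasts these contacts carry force from the matrix to the cytoskeleton and are known to take part in bone formation.

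Array medians lay between an intensity of 181 and 196. Genes that mark stromal cells were present, with 14 of 15 measured markers above the filter, and their summed intensity was 29436 to 34878 on flight arrays and 36012 to 40367 on ground-based arrays. Of these 14, 7 were called lower in flight, 1 higher (Eng, log2 difference 0.80) and 6 were not called. Of all tested genes 25.7% were lower and 12.7% higher. Sums of neuronal, muscle, epithelial and endothelial markers were higher on all flight arrays than on all ground-based arrays. Neuronal markers (9 of 12 above the filter) summed to 10797 to 16237 on flight arrays and 2956 to 3996 on ground-based arrays, and muscle markers (11 of 13) to 4613 to 5794 on flight arrays and 2291 to 2389 on ground-based arrays. Epithelial markers (8 of 12) summed to 2690 to 10624 on flight arrays, with 10624 on the osteoinductive microgravity array, and to 1720 to 1856 on ground-based arrays. Of these 8, 5 were called higher in flight, where 12.7% of all genes were, and 3 were not called. Sftpc, a lung surfactant gene, had a log2 difference of 4.06, and the median of the 8 was 0.48. Endothelial markers (10 of 12) summed to 2331 to 4071 on flight arrays and 2102 to 2223 on ground-based arrays. Cell cycle genes (14 of 14) summed to 4207 to 5968 on flight arrays and 8147 to 9457 on ground-based arrays. Leukocyte markers (9 of 18 above the filter) summed to 4163 to 5377 on flight arrays and 4289 to 4963 on ground-based arrays, and Ptprc, the leukocyte antigen CD45, lay below the filter. The part of these cell types in the results was not tested, and in RNA from a whole culture fewer cells of a type and less RNA per cell cannot be told apart.

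**Figure D1:**
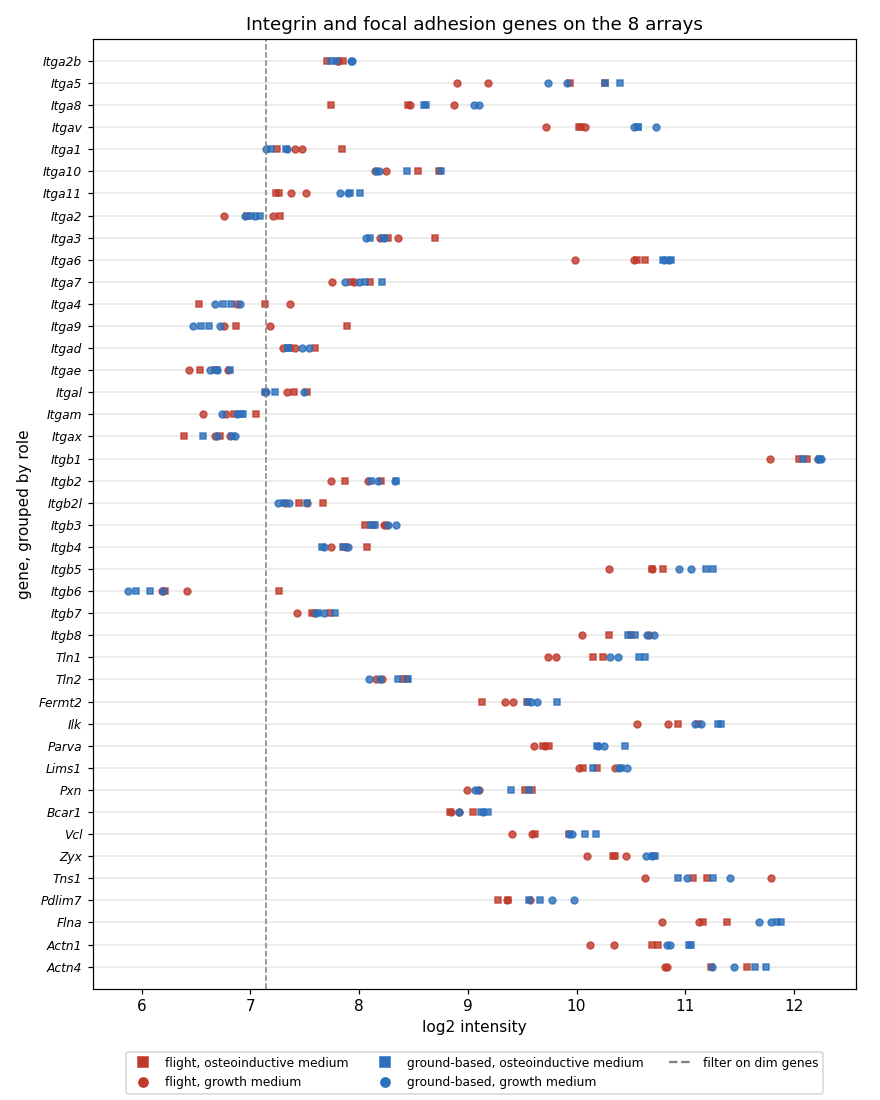
Log2 intensity of all 42 genes on the 8 arrays, grouped by role. Red points are flight arrays and blue points ground-based arrays, squares osteoinductive and circles growth medium, and the dashed line is the filter at 7.14. Probe sets differ in how they respond, so levels of different genes are not to be compared. The red points of Flna, Itgav and Parva all lie left of the blue ones.

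Flight arrays were lower in 16 of the 35 tested genes than ground-based arrays and higher in 0, with an adjusted p below 0.05 in limma. The 16 comprised 6 of 20 integrins and 10 of 15 adaptors. Of all 13205 genes 38.4% were called in this comparison, 25.7% lower and 12.7% higher, and of the 4688 genes with a mean log2 intensity above 9, 38.5% were lower and 3.8% higher. Of the 20 members above that mean 14 were lower. The median log2 difference, flight minus ground-based, was -0.21 over the 35 members (-0.10 for integrins and -0.35 for adaptors), -0.09 over all tested genes, and -0.39 over the 20 bright members against -0.20 over all bright genes. All 4 flight values lay below all 4 ground-based values in 10 of 35 members (Flna, Itgav, Parva, Itga11, Itgb5, Tln1, Actn1, Itga6, Zyx and Fermt2), and above them in 0, where 16.2% and 11.8% of all genes did so. With cyclic loess scaling, which was chosen after the data were seen, 15.2% of all genes were lower and 15.8% higher in flight, and 8 of the 16 members kept their call. With only the microgravity, centrifuge and ground unit arrays 7 kept it, while the other 9 had log2 differences from -0.21 (Fermt2) to -0.48 (Itga8) that were not called. All 16 had a negative difference in every alternative in which they were tested. Of these, 7 were called in every such run: Actn1, Flna, Itga11, Itgav, Itgb5, Parva and Tln1. Itga11, with a mean log2 intensity of 7.63, was not tested with a stricter filter at 7.99.

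**Figure D2:**
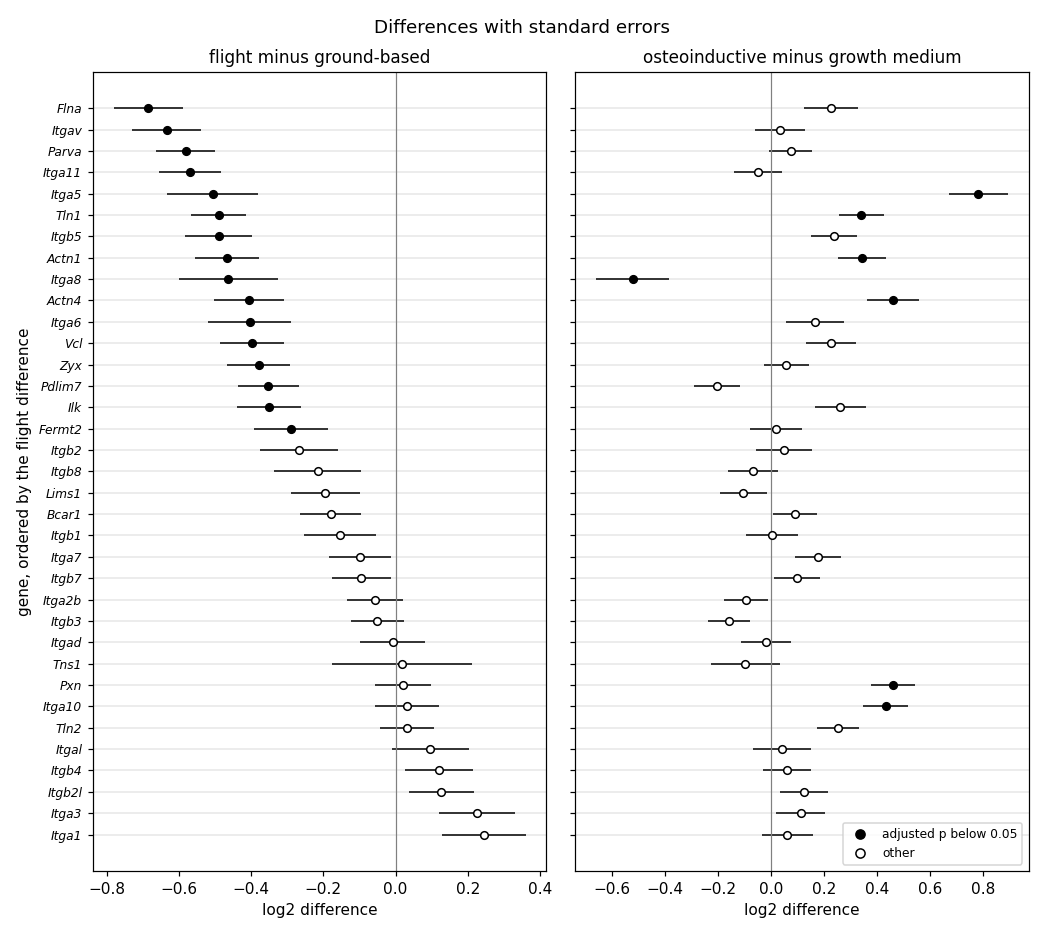
Log2 differences with their standard errors for the 35 tested members, in flight minus ground-based (left) and osteoinductive minus growth medium (right), in the order of the flight difference. Filled points have an adjusted p below 0.05. The flight differences run from -0.68 for Flna to 0.24 for Itga1.

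Of the integrin alpha chains that bind the RGD sequence of fibronectin and vitronectin, Itgav, Itga5 and Itga8 were lower in flight. Itgav (probe set 10473281) pairs with several beta chains in the vitronectin receptors. In osteoinductive medium Itgav measured 1053 in microgravity and 1042 on the centrifuge, against 1518 in ground units and 1512 in dishes. In growth medium Itgav measured 842 in microgravity and 1079 on the centrifuge, against 1695 in ground units and 1481 in dishes. Every flight array lay below every ground-based array, and the lowest was growth medium in microgravity. The log2 difference was -0.63 (SE 0.10, limma adjusted p = 0.000349), a level 1.55-fold lower.

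Itga5 (probe set 10433114), the alpha chain of the fibronectin receptor, was lower by 0.51 on the log2 scale (log2 difference -0.51, SE 0.13, limma adjusted p = 0.00838). In osteoinductive medium Itga5 measured 985 in microgravity and 1229 on the centrifuge, against 1230.5 in ground units and 1352 in dishes. In growth medium Itga5 measured 478 in microgravity and 583 on the centrifuge, against 855 in ground units and 967 in dishes. Within each medium the flight values lay below the ground-based ones, by 1 unit at the closest in osteoinductive medium, and across media the groups overlapped. Itga8 (probe set 10480090), which binds nephronectin and other RGD proteins, had a log2 difference of -0.46 (SE 0.14, limma adjusted p = 0.0195). Its flight values ran from 213 to 467 and its ground-based values from 386 to 548, with overlap between the groups. Its call was lost without the growth microgravity array (adjusted p = 0.0632), the osteoinductive centrifuge array (adjusted p = 0.0533) or the osteoinductive laboratory array (adjusted p = 0.0521). Cyclic loess scaling lost it as well (log2 difference -0.37, limma adjusted p = 0.0519). Itga2b, the platelet alpha chain, was at 208 to 231 in flight and 215 to 244 in ground-based arrays, with a log2 difference of -0.06 that was not called. Markers of megakaryocytes, which make platelets (4 of 6 above the filter), summed to 1023 to 1301 on flight arrays and 938 to 1035 on ground-based arrays.

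Of the collagen-binding alpha chains Itga11, known for collagen binding on fibroblasts and stromal cells, was lower (probe set 10586079). In osteoinductive medium Itga11 measured 153 in microgravity and 150.2 on the centrifuge, against 241 in ground units and 257 in dishes. In growth medium Itga11 measured 165 in microgravity and 182 on the centrifuge, against 227 in ground units and 238 in dishes. The flight arrays all lay below the ground-based arrays. The log2 difference was -0.57 (SE 0.09, limma adjusted p = 0.00036). Itga10, which binds collagen in cartilage, differed by 0.03 and Itga1, a collagen receptor of many mesenchymal cells, by 0.24 (SE 0.12, limma adjusted p = 0.113). Neither was called.

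Of the laminin-binding alpha chains, Itga6 (probe set 10472820) was lower at 1017 to 1581 on flight arrays, against 1772 to 1865 on ground-based arrays (log2 difference -0.40, SE 0.11, limma adjusted p = 0.0163). The 2 groups did not overlap, and the value of 1017 was the growth microgravity array. Without the growth laboratory array the call was lost (log2 difference -0.36, limma adjusted p = 0.0574). It was also lost with quantile normalization (-0.24, limma adjusted p = 0.0689) and cyclic loess (-0.21, limma adjusted p = 0.0891). With only the microgravity, centrifuge and ground unit arrays it was lost as well (-0.37, limma adjusted p = 0.125). Itga3 and Itga7 differed by 0.23 and -0.10 and were not called. The leukocyte alpha chains Itgal and Itgad differed by 0.10 and -0.01 and were not called either.

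Of 8 tested beta chains only Itgb5, a partner of Itgav in a vitronectin receptor, passed (probe set 10435305). In osteoinductive medium Itgb5 measured 1657 in microgravity and 1783 on the centrifuge, against 2339.6 in ground units and 2447 in dishes. In growth medium Itgb5 measured 1263 in microgravity and 1655 on the centrifuge, against 2125 in ground units and 1970.5 in dishes. All flight arrays were below all ground-based arrays, with a log2 difference of -0.49 (SE 0.09, limma adjusted p = 0.00174). Itgb1, the beta chain shared by most of these alpha chains (probe set 10576661), was at 3524 to 4772 on flight arrays and 4328 to 4881 on ground-based arrays, with overlap. Its log2 difference of -0.15 (SE 0.10, limma adjusted p = 0.24) was not called. The log2 differences of Itgb2, Itgb3, Itgb4, Itgb7, Itgb8 and Itgb2l lay between -0.27 and 0.13 and were not called either.

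**Figure D3:**
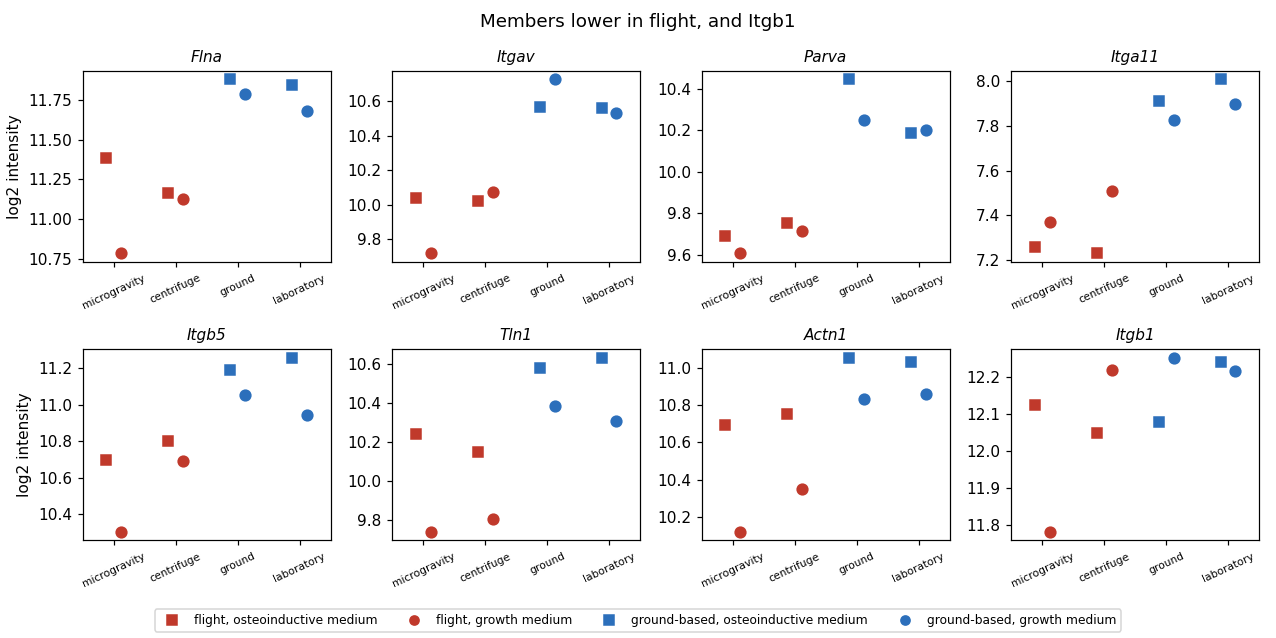
Log2 intensity per array of Flna, Itgav, Parva, Itga11, Itgb5, Tln1, Actn1 and Itgb1 in the 4 conditions, each panel with its own axis. Red marks flight and blue ground-based arrays, squares osteoinductive and circles growth medium. The red points lie below the blue points for all but Itgb1.

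Of 7 adaptors that link adhesions to actin, all with a mean log2 above 9, 6 were lower in flight, where 38.5% of all genes above that mean were lower, and Tns1, described below, was not called with a log2 difference of 0.02. Flna (probe set 10605256), which encodes filamin A, a crosslinker of actin that binds beta tails, had the lowest difference of the members. In osteoinductive medium Flna measured 2677 in microgravity and 2294 on the centrifuge, against 3768 in ground units and 3684 in dishes. In growth medium Flna measured 1761 in microgravity and 2233 on the centrifuge, against 3528 in ground units and 3285 in dishes. Every flight value was below every ground-based value. The log2 difference was -0.68 (SE 0.10, limma adjusted p = 0.000205), a level 1.61-fold lower.

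Actn1 and Actn4 encode alpha-actinins, which bundle actin filaments at adhesions. In osteoinductive medium Actn1 measured 1658 in microgravity and 1724 on the centrifuge, against 2127 in ground units and 2093 in dishes. In growth medium Actn1 measured 1113 in microgravity and 1304 on the centrifuge, against 1824 in ground units and 1857 in dishes. Flight arrays were below ground-based arrays throughout (log2 difference -0.47, SE 0.09, limma adjusted p = 0.00177). Actn4 ran from 1799 to 3033 on flight arrays and from 2435 to 3419 on ground-based arrays, with overlap and a log2 difference of -0.41 (SE 0.10, limma adjusted p = 0.00655). Vcl, which encodes vinculin, a reinforcing link between talin and actin, ran from 680 to 975 on flight arrays and from 973 to 1156 on ground-based arrays. Its log2 difference was -0.40 (SE 0.09, limma adjusted p = 0.0049). Zyx, which encodes zyxin, a LIM protein of mature adhesions and stress fibres, ran from 1096 to 1403 on flight arrays and 1591 to 1691 on ground-based arrays without overlap (log2 difference -0.38, SE 0.09, limma adjusted p = 0.0056). Pdlim7, a scaffold of the actin cytoskeleton that is also known as Enigma, ran from 622 to 760.3 on flight arrays and from 758 to 1009 on ground-based arrays, with overlap and a log2 difference of -0.35 (SE 0.09, limma adjusted p = 0.00736).

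The promoters of Vcl, Fermt2, Flna and Actn4 are printed because they are the members lower in flight whose promoter window holds a CArG box or a TEAD motif, the sites of factors that are known to follow actin tension. The windows run from 250 bases before to 50 bases after the start site in RefSeq promoters of build GRCm38.p6, 5′ to 3′, with motifs in capitals, where CATTCC is the TEAD motif on the other strand. On both strands the CArG box, bound by serum response factor, the TEAD motif GGAATG and the AP-1 motif TGANTCA were searched, with no overlap between the matches shown. Vcl lies at chr14:20929148-20929447 on the plus strand, and its CArG box starts 227 bases and its TEAD motif 143 bases before the start site. Fermt2 lies at chr14:45530016-45530315 on the minus strand, with a CArG box 204 bases before the start. Flna lies at chrX:74246485-74246784 on the minus strand, with a TEAD motif 146 bases before the start, and Actn4 at chr7:28962283-28962582 on the minus strand, with a TEAD motif 216 bases and an AP-1 motif 169 bases before the start.
Vcl: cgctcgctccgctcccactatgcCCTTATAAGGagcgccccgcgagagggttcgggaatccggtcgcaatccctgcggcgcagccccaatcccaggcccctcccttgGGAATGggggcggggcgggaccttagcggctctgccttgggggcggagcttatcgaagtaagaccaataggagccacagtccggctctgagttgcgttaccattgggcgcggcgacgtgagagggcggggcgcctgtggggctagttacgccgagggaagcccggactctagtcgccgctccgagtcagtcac
Fermt2: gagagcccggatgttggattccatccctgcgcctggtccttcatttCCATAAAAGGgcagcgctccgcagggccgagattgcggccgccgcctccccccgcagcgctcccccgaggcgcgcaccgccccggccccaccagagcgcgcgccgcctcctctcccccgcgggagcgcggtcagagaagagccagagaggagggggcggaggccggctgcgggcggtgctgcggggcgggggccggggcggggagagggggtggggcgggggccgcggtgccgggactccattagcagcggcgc
Flna: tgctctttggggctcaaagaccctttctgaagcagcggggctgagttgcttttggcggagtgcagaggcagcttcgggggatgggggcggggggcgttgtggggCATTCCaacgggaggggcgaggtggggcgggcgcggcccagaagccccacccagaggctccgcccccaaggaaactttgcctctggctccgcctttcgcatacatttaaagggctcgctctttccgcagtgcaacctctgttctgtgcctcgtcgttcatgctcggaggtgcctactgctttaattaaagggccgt
Actn4: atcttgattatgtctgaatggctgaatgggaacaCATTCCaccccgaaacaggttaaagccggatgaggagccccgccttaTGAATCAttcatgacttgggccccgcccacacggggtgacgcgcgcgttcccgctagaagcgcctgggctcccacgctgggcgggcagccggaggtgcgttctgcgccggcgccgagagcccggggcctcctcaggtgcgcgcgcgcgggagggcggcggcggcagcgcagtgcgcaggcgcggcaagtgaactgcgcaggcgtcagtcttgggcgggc
A window was found for 31 of the 42 members, 37 windows in all. The CArG box was present in 3 members (Fermt2, Itgb6 and Vcl), in 3 of the 37 windows, where 1.63% of 32851 windows of all genes held it. The TEAD motif was present in 5 members (Actn4, Flna, Itga10, Itgb1 and Vcl), in 5 of the 37 windows, against 14.66% of all windows. The AP-1 motif was present in 5 members (Actn4, Itga3, Itga9, Itgax and Zyx), in 5 of the 37 windows, against 7.81% of all windows. Each match is a description of the letters and no measurement of binding.

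Of the proteins that bind integrin tails directly, Tln1 (probe set 10512514), which encodes talin 1, the link from beta tails to actin, was lower. In osteoinductive medium Tln1 measured 1211 in microgravity and 1136 on the centrifuge, against 1529 in ground units and 1586 in dishes. In growth medium Tln1 measured 856 in microgravity and 896 on the centrifuge, against 1337 in ground units and 1267 in dishes. The flight arrays lay below the ground-based arrays in every case (log2 difference -0.49, SE 0.08, limma adjusted p = 0.000486). Tln2, a second talin, differed by 0.03 and was not called. Fermt2, which encodes kindlin 2, a coactivator of integrins whose promoter is printed above, ran from 560.04 to 747 on flight arrays and from 754 to 903 on ground-based arrays without overlap (log2 difference -0.29, SE 0.10, limma adjusted p = 0.0396). The call of Fermt2 was lost when any of 5 single arrays was left out, with adjusted p-values from 0.0619 to 0.145. It was also lost with quantile normalization (log2 difference -0.15, limma adjusted p = 0.245) and cyclic loess (-0.12, limma adjusted p = 0.389).

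In the complex of Ilk, PINCH and parvin, Parva (probe set 10556426), which encodes alpha-parvin, an actin-binding partner of Ilk, had the lowest difference. In osteoinductive medium Parva measured 826 in microgravity and 862 on the centrifuge, against 1394 in ground units and 1166 in dishes. In growth medium Parva measured 779 in microgravity and 839.8 on the centrifuge, against 1219 in ground units and 1177 in dishes. No flight array reached a ground-based value (log2 difference -0.58, SE 0.08, limma adjusted p = 0.000204). Ilk, the scaffold that joins the complex to beta tails, ran from 1507 to 2227 on flight arrays and from 2174 to 2572 on ground-based arrays, with overlap and a log2 difference of -0.35 (SE 0.09, limma adjusted p = 0.00876). Lims1, which encodes PINCH1, differed by -0.19 and was not called. Of the scaffolds of the focal adhesion kinase pathway, Pxn (paxillin) and Bcar1 (p130Cas) differed by 0.02 and -0.18 and were not called.

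No member was called between microgravity and the centrifuge, where 0 of 13205 genes were called in limma and 4 members (1507 of all genes) had an unadjusted p below 0.05. The highest differences, microgravity minus centrifuge, were 0.65 for Tns1 (SE 0.18, limma adjusted p = 0.3), 0.34 for Itga1 and 0.30 for Itga3, and the lowest -0.41 for Itgb8, the chain of a receptor that activates TGF-beta (SE 0.13, limma adjusted p = 0.331), -0.30 for Itga5 and -0.25 for Itgb5. None of these was called, and Flna and Parva, the members lowest in flight besides Itgav, differed by -0.06 and -0.08. With 1 array on each side, Flna differed by 0.22 in osteoinductive and -0.34 in growth medium. In the same order Itgav differed by 0.02 and -0.36, and Parva by -0.06 and -0.11. The Tns1 value came from its brightest probe set, and its other probe sets had differences from -0.01 to 0.20. On the brightest probe set, microgravity minus centrifuge was 1.16 in growth and 0.13 in osteoinductive medium. The centrifuge and ground units differed in 6 members, all lower on the centrifuge (Flna, Parva, Itgav, Actn4, Tln1 and Itga11), where 10.1% of all genes were called, 3.78% lower and 6.34% higher. Flna had a log2 difference of -0.69 (SE 0.14, limma adjusted p = 0.00794). Microgravity and ground units differed in 13 members, 12 lower and 1 higher, where 28.7% of all genes were called, 18.1% lower and 10.6% higher. The 12 were Itgav, Itgb5, Itga5, Itga11, Itga6, Itgb8, Flna, Parva, Actn1, Tln1, Zyx and Pdlim7. Itgav had the lowest log2 difference, -0.77 (SE 0.13, limma adjusted p = 0.00142), and Flna and Parva followed at -0.75 and -0.70. These 2 comparisons share the ground unit arrays. Of the 20 members with a mean log2 above 9, 11 were lower in microgravity and 5 on the centrifuge than in ground units. Of all 4688 genes above that mean, 1425 and 214 were lower. The 13 became 5 with quantile normalization and 6 with cyclic loess. Leaving out 1 array gave 5 to 18 members in microgravity minus ground and 1 to 9 in centrifuge minus ground. The first was 6 without the growth microgravity array, 7 without the osteoinductive ground array and 5 without the growth ground array, and the second 2 without the osteoinductive centrifuge array, 3 without the osteoinductive ground array and 1 without the growth ground array. Ground units and laboratory dishes differed in 0 members, where 0 of all genes were called and 0 members and 269 genes had an unadjusted p below 0.05.

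Itga1 was the 1 member higher in microgravity than in ground units. In osteoinductive medium Itga1 measured 229.8 in microgravity, against 152 on the centrifuge, 146 in ground units and 161 in dishes. In growth medium Itga1 measured 178 in microgravity, against 169.5 on the centrifuge, 141 in ground units and 161 in dishes. Both microgravity arrays were above the other 6, and microgravity minus ground was 0.49 on the log2 scale (SE 0.14, limma adjusted p = 0.0183). It was 0.29 without the osteoinductive microgravity array (limma adjusted p = 0.137), and the call was also lost without either ground unit array, with quantile normalization (0.39, limma adjusted p = 0.07) and with cyclic loess (0.43, limma adjusted p = 0.052). Below the filter, Itga9, a chain of a tenascin C receptor, and Itgb6, a chain of an activator of latent TGF-beta, had the largest differences between microgravity and ground units. In osteoinductive medium Itga9 measured 237 in microgravity, against 117 on the centrifuge, 98.3 in ground units and 93.5 in dishes. In growth medium Itga9 measured 145 in microgravity, against 108 on the centrifuge, 106 in ground units and 89.0 in dishes. All 4 flight values of Itga9 lay above the 4 ground-based values. The same held for 11.8% of all tested genes, of which Itga9 was not one. Itgb6 measured 153 on the osteoinductive microgravity array and 58.5 to 85.4 on the other 7. In a fit without the filter, adjusted over 19938 genes, microgravity minus ground was 0.86 for Itga9 (limma adjusted p = 0.00461) and 0.77 for Itgb6 (limma adjusted p = 0.0197). In the same fit Itga4, a chain of the receptor for Vcam1, had a difference of 0.50 (limma adjusted p = 0.0243). Itga4 measured 140.04 in osteoinductive and 164 in growth medium in microgravity, and 92.3 to 119.8 on the other 6 arrays. Itga9, Itgb6 and Itga4 failed the filter and are not counted as called. They were picked for the size of their differences from the 7 integrins below the filter. Outside microgravity all their values lay below the filter intensity of 141. The share of all genes called in that fit is not given here. The array highest for Itga9, Itgb6 and Itga1 was also the highest for epithelial (10624), endothelial (4071), leukocyte (5377) and megakaryocyte (1301) markers. Neuronal (16237) and muscle (5794) markers were highest on the growth microgravity array, as was Itga4. The part of these cell types was not tested.

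Of the 35 members 18 had their lowest value on the growth microgravity array, where 27.1% of all tested genes and 45.8% of those with a mean log2 above 9 did. The highest value stood on the osteoinductive laboratory array for 14 members, where 18.2% of all tested genes stood.

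Medium was the other factor. Osteoinductive medium was higher in 6 of 35 members (Itga5, Pxn, Actn4, Itga10, Actn1 and Tln1) and lower in 1 (Itga8), where 14.5% of all genes were called, 6.42% higher and 8.13% lower. Of the 20 members with a mean log2 above 9, 5 were higher and 0 lower, where 9.19% of all genes above it were higher and 11.1% lower. The median log2 difference, osteoinductive minus growth, was 0.08 over the members and -0.02 over all tested genes. Osteoinductive was above growth in all 4 conditions for 11 members and below it in all 4 for 3, where 15.8% and 20.3% of all genes were. With cyclic loess scaling 11 members were called, 10 of them higher, and without either centrifuge array 4.

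Itga5, the fibronectin receptor chain, had the largest difference between media, 0.78 on the log2 scale (SE 0.11, limma adjusted p = 0.000664), a level 1.72-fold higher. Its osteoinductive minus growth difference was 1.04 in microgravity and 1.08 on the centrifuge, and 0.53 in ground units and 0.48 in dishes. Both flight differences were above both ground-based ones, but the interaction of flight and medium was not called for Itga5 (0.56, SE 0.21, unadjusted p = 0.0201, adjusted p = 0.999 in limma). It was called for 0 members and 0 of 13205 genes, and 1 member and 525 genes had an unadjusted p below 0.05.

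Pxn, which encodes paxillin, a hub of adhesion signalling, was higher in osteoinductive medium in each condition. In osteoinductive medium Pxn measured 739 in microgravity, 773 on the centrifuge, 676 in ground units and 758 in dishes. In growth medium Pxn measured 548 in microgravity, 509 on the centrifuge, 535 in ground units and 547 in dishes. The media did not overlap, and the log2 difference was 0.46 (SE 0.08, limma adjusted p = 0.00324). Itga10 likewise measured 347 to 431 in osteoinductive medium and 283 to 303 in growth medium, without overlap (log2 difference 0.43, SE 0.08, limma adjusted p = 0.00504). Actn4 was 0.46 higher (SE 0.10, limma adjusted p = 0.0079), Actn1 0.34 (SE 0.09, limma adjusted p = 0.0249) and Tln1 0.34 (SE 0.08, limma adjusted p = 0.0184). All 3 were higher in each of the 4 conditions, and the calls of Actn1 and Tln1 were lost without either microgravity array (limma adjusted p = 0.0895 and 0.062) and without either centrifuge array (limma adjusted p = 0.0875 and 0.0509), that of Tln1 also without either laboratory array (limma adjusted p = 0.0684). Tln2, Ilk and Itgb5 had differences of 0.25, 0.26 and 0.24 that were not called.

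Itga8 was lower in osteoinductive medium by 0.52 on the log2 scale (log2 difference -0.52, SE 0.14, limma adjusted p = 0.0249). In osteoinductive medium Itga8 measured 350.2 in microgravity, 213 on the centrifuge, 393 in ground units and 386 in dishes. In growth medium Itga8 measured 353 in microgravity, 467 on the centrifuge, 548 in ground units and 533 in dishes. The difference was -1.13 on the centrifuge, -0.48 and -0.46 in ground units and dishes, and -0.01 in microgravity. Without either centrifuge array it was -0.32 and not called (limma adjusted p = 0.117).

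**Figure D4:**
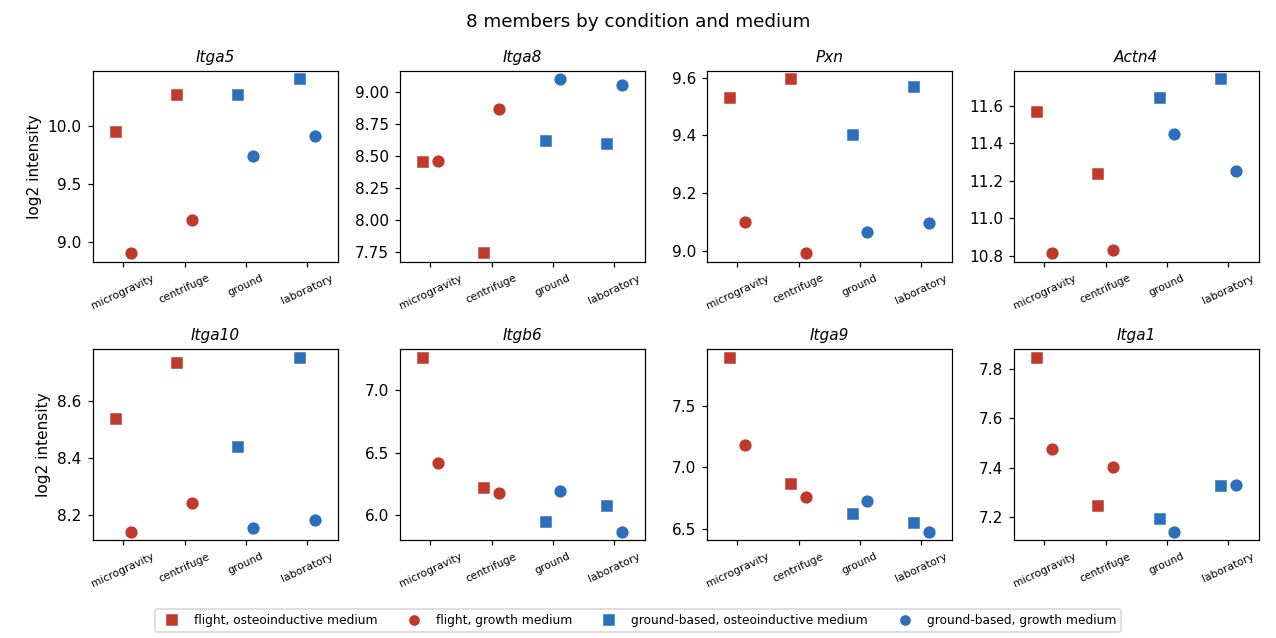
Log2 intensity per array of Itga5, Itga8, Pxn, Actn4, Itga10, Itgb6, Itga9 and Itga1 in the 4 conditions, each panel with its own axis. Squares are osteoinductive and circles growth medium, red flight and blue ground-based arrays. The squares of Itga5, Pxn, Actn4 and Itga10 lie above the circles of their condition, and Itgb6 and Itga9 are highest on the osteoinductive microgravity array.

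Tns1, which encodes tensin 1, an adaptor of fibrillar adhesions, has 6 probe sets, and they disagree on the medium. All 6 were set side by side in a fit over all probe sets above the filter. The brightest, probe set 10355528, used above, differed by -0.10 between osteoinductive and growth medium (limma adjusted p = 0.768). The other 5 were higher in osteoinductive medium, with log2 differences of 1.44, 0.56, 1.10, 1.11 and 0.58. Their limma adjusted p-values in the same fit were 0.00291, 0.0183, 0.00225, 0.00333 and 0.0103. Averaged over the 6 probe sets, the difference was 0.78 (limma adjusted p = 0.000133). The choice of other probe sets was made after the data were seen. Transcripts or exons of these probe sets were not used here.

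**Figure D5:**
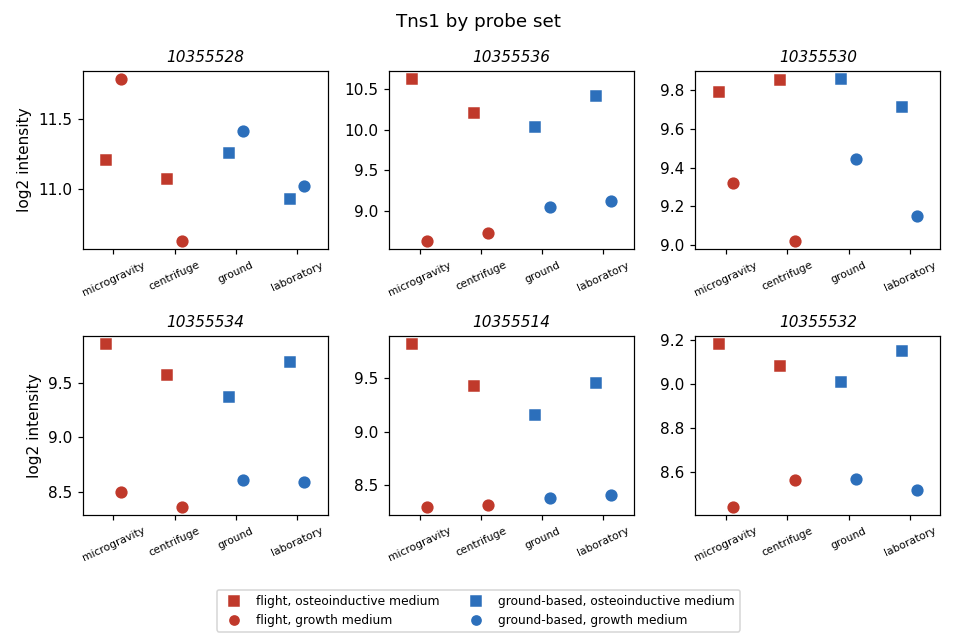
Log2 intensity of the 6 probe sets of Tns1 on the 8 arrays, each panel with its own axis. Squares are osteoinductive and circles growth medium, red flight and blue ground-based arrays. The squares lie above the circles in every condition for 5 probe sets and not for 10355528.

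Other genes of the pathway were counted from lists of further focal adhesion genes, of integrin ligands and of targets of actin-sensing factors. Of 45 tested further focal adhesion genes, 4 were higher and 13 lower in flight than in ground-based arrays (median -0.13), where 12.7% of all tested genes were higher and 25.7% lower. The lowest were Flnc (filamin C), Tes (testin) and Lpp, a zyxin relative, at log2 differences of -0.79, -0.75 and -0.75, and the highest Enah (a regulator of actin filament growth) at 0.35. Of 30 tested integrin ligands 7 were higher and 6 lower (median -0.10), against the same 12.7% and 25.7% of all genes. Ibsp, the RGD-bearing bone sialoprotein, was higher by 1.73 and Vtn, vitronectin, by 0.78. Tnc, tenascin C, had a log2 difference of -0.94 and Vcam1, the ligand of integrin alpha4, -0.59. Of 21 tested targets of serum response factor and YAP, factors known to follow actin tension, 9 were lower and 0 higher (median -0.23), where 25.7% of all genes were lower, and 38.5% of those with a mean log2 above 9. Acta2 (smooth muscle actin) had the lowest difference of these targets, -1.65. The other 12 targets were not called, the highest of them Tagln at 0.20 and Ccn2 at 0.13. In osteoinductive against growth medium, 11 ligands were higher and 5 lower (median 0.14), where 6.42% of all genes were higher and 8.13% lower, with Ccn2 at 2.09, Postn (periostin) at 1.39 and Tnc at -1.12. Of the further focal adhesion genes 7 were higher and 2 lower (median 0.02), against the same 6.42% and 8.13%, with Tns2 (tensin 2) at 0.94 and Sdc4 (syndecan 4) at 0.78.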

How the data were processed

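Total RNA of 8 mouse bone marrow stromal cell samples was amplified and labelled with biotin, per the labels' protocols, and the authors deposited an intensity on the linear scale for each probe set. RMA and GCRMA are named in the submitters' processing notes, without versions or the choice between them. No genome build was found in the labels or file headers. Titles gave each sample's medium and condition. From the deposited intensities log2 values were taken and used without further scaling.

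Of 35557 probe sets, 21789 were annotated to 1 gene, 1621 to several and 12147 to none here. A gene was represented by its brightest single-gene probe set and tested if its mean exceeded the 40th percentile of all probe sets. limma 3.58.1 in R 4.3.3 (lmFit, eBayes) was run over all 13205 tested genes, with Benjamini-Hochberg adjustment within each comparison, threshold 0.05, two-sided. Flight minus ground-based used a fit with medium as a term, the conditions and the media a fit of condition plus medium, and the interaction a fit of its own. In the first fit, the 2 conditions of each side count as repeats. The fits were tested on simulated data. Every member may be named, in full where called for flight or medium, and otherwise the 3 highest and 3 lowest. Alternatives were other scalings, filters, offsets and probe set rules, other designs, and leaving out each array. The members and lists were chosen with earlier results of these data known. The number of arrays limits the precision.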

Additional observations from a re-analysis of the deposited data

Results flagged for a closer look

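Of 84 groups of 4 arrays checked for an array far from the others, 2 had one, where chance gives about 1 in 20. Itga6 had its lowest flight value on the growth microgravity array, at a log2 intensity of 9.99; the gap to the next flight array made up most of the range of the 4. Itgav had its lowest flight value on the same array, at a log2 intensity of 9.72.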

How the results depend on the processing

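Over the alternatives, 255 values of the 16 members called in flight minus ground-based kept their direction, and 218 stayed past the threshold. Counts of called members changed as follows. In flight minus ground-based the 16 fell to 7 with only the incubation-unit arrays and to 8 with cyclic loess (leaving out 1 array gave 14 to 20). In microgravity minus ground the 13 became 5 with quantile normalization and 6 with cyclic loess, and 5 to 18 when 1 array was left out, with 6, 7 and 5 without the growth microgravity, osteoinductive ground and growth ground arrays. In centrifuge minus ground the 6 became 1 to 9, with 2, 3 and 1 without the osteoinductive centrifuge, osteoinductive ground and growth ground arrays. In osteoinductive minus growth the 7 became 11 with cyclic loess and 4 to 7 with 1 array left out, with 4 without either centrifuge array. The cause was not tested. Over all genes, cyclic loess gave 15.8% higher and 15.2% lower in flight, against 12.7% and 25.7% as deposited. The median log2 difference of all genes in flight was -0.007 with cyclic loess and -0.088 as deposited. The other comparisons had 0 called members in every setting run. Leave-one-out took Fermt2, Itga6 and Itga8 out of the flight calls and Actn1, Itga8 and Tln1 out of the medium calls. Tns1 in ground minus laboratory had a log2 difference of -0.0031 when averaged over its probe sets. In the interaction, leaving out 1 array gave Fermt2 values from -0.33 to 0.085 and Itga8 values from -0.46 to 0.26. Fermt2 was 0.085 without the osteoinductive centrifuge array and 0.0083 without the osteoinductive laboratory array, and Itga8 0.26 and 0.10 without the osteoinductive and the growth centrifuge array. Tns1 in osteoinductive minus growth was 0.78 as a mean over its probe sets and 1.44, 0.56, 1.10, 1.11 and 0.58 by its other probe sets. The fit of condition plus medium already pairs the osteoinductive and growth arrays of a condition, with condition as the block.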
